A study of Homo sapiens with 6 samples.

Results

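The genes described here are 10 transcripts of the circadian clock, CLOCK, PER1, PER2, PER3, CRY1, CRY2, BHLHE40, NR1D1, NR1D2 and DBP, taken by symbol from a table of 22681 genes. All 10 were found, and all 10 passed the filter on low counts together with 14346 other genes. They were compared between 3 cultures labelled shNC and 3 cultures labelled shKRT15 of TPC-1-Len, a derivative of the human papillary thyroid carcinoma line TPC-1 that is resistant to lenvatinib. Both groups were kept in 10 µM lenvatinib, a drug that blocks several receptor tyrosine kinases, including those for VEGF and FGF. The shNC cultures received a non-targeting hairpin and the shKRT15 cultures a hairpin against the type I keratin gene KRT15, both by liposome transfection. No drug-free or drug-sensitive culture was part of the series. The hour of harvest, the time after transfection and any step that would set the clocks of the cells to 1 phase are not stated in the labels. Each culture was sampled once, so a level below is the mean of a culture at 1 moment and carries no information on rhythm.

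The clock of mammalian cells is a feedback loop of transcription. CLOCK, or its relative NPAS2, pairs with BMAL1 (ARNTL in the table) and activates genes through E-box sequences, among them the PER and CRY genes, whose proteins return to the nucleus and repress the pair. A side loop runs through the nuclear receptors REV-ERB alpha and beta (NR1D1 and NR1D2), which repress ARNTL and other genes that RORs activate. DBP is an output factor that binds D-box sequences, and BHLHE40 (DEC1) is a repressor that competes for E-boxes and is also induced by many stress and growth signals. Follicular thyroid cells have such a clock, and thyroid tumours have been described with altered clock gene expression.

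Promoter sequence is shown for the 5 genes called in the comparison that held a match to a clock motif, and for PER1 and NR1D2, relatives that were not called. Windows run from 250 bases before to 50 bases after a RefSeq start site (GRCh38.p14), 5′ to 3′ on the gene's strand, with motif matches in capitals. The motifs were the E-box CACGTG, the E′-box CACGTT (a variant bound by the same factors), the D-box as TTATGTAA or TTACGTAA, the shared response element of ROR and REV-ERB and the cAMP response element TGACGTCA, each searched on both strands.
PER2, chr2:238288561-238288860, minus strand: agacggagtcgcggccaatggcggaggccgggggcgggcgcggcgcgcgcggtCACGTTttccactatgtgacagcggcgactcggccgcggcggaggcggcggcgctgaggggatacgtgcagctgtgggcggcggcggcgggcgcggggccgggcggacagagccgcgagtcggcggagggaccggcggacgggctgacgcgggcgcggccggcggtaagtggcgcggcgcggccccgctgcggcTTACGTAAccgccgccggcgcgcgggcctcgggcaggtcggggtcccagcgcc
PER3, chr1:7784041-7784340, plus strand: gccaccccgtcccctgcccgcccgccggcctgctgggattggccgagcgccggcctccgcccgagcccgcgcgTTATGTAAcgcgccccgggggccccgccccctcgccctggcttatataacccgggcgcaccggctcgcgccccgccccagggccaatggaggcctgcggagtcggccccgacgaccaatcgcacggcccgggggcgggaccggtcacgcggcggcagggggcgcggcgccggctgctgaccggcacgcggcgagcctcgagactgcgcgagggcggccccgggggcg
NR1D1, chr17:40100540-40100839, minus strand: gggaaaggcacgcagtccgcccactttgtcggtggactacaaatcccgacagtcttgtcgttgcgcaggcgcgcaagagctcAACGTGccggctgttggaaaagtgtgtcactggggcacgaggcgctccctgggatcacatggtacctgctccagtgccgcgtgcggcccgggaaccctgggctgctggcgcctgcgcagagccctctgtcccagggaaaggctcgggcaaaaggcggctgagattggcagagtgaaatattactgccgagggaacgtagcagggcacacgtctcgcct
BHLHE40, chr3:4979187-4979486, plus strand: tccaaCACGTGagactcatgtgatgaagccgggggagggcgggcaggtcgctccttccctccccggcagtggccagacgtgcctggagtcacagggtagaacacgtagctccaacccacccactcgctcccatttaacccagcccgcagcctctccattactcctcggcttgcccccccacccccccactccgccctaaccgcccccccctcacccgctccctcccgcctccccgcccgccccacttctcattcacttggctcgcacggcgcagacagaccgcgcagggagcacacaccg
CRY1, chr12:107093500-107093799, minus strand: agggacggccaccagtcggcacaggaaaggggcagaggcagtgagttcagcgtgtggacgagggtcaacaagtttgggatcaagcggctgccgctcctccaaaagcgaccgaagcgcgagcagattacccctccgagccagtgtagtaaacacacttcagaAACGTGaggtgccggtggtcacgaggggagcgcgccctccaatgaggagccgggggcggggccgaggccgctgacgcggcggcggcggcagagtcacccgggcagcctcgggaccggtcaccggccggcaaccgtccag
PER1, chr17:8152355-8152654, minus strand: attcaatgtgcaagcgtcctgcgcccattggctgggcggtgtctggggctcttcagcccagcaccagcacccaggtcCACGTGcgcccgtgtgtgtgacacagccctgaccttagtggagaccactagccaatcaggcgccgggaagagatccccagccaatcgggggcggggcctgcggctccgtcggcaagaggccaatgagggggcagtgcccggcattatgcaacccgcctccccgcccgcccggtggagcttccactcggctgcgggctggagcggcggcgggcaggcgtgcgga
NR1D2, chr3:23945871-23946170, plus strand: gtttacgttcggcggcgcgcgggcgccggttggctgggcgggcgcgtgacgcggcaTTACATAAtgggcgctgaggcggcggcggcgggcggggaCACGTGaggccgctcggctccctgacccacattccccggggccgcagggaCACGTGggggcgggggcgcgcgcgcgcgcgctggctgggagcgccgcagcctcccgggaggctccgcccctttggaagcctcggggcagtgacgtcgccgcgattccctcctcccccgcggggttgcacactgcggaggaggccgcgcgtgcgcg
Among the windows, PER2 held an E′-box that began 197 bases before the start site and a D-box that began 3 bases before it. PER3 held a D-box and no E-box of either form. NR1D1 and CRY1 each held an E′-box on the opposite strand, and BHLHE40 and PER1 each an E-box. NR1D2 held 2 E-boxes and a D-box. No match shared a base with another. All 10 genes had at least 1 window, 14 in all. E-boxes were present in 3 of these 14 windows against 7.26% of 35116 windows of all genes, and E′-boxes in 5 of 14 against 5.34%. D-boxes written TTATGTAA stood in 2 of 14 windows (0.886% of all), and those written TTACGTAA in 1 of 14 (0.125% of all). The ROR and REV-ERB element was found in 1 window, a second start of CLOCK (0.581% of all), and the cAMP response element in 0 of 14 (1.85% of all). DBP had no match to any of the 6 search strings in its single window. Such matches are letters in a short window, and genes with and without a change in expression held them.

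Libraries held 36286059 to 36808695 counted reads in shNC and 39868231 to 41343780 in shKRT15. Levels are CPM, read counts relative to library size after TMM scaling, which keeps a few abundant genes from shifting all others. KRT15 itself had 1040, 1137 and 1284 reads in shNC and 1024, 1044 and 1005 in shKRT15, a log2 fold change of −0.38 ± 0.10 (SE, adjusted p = 0.00465). A gene was called at a Benjamini-Hochberg adjusted p under 0.05 in edgeR's quasi-likelihood test, adjusted over all 14356 tested genes. By that rule 45.0% of all tested genes were called, 22.1% higher and 23.0% lower in shKRT15. In 54.0% of tested genes the 2 groups did not overlap in CPM. The cells carried the thyroid factor genes PAX8 (375 and 410 CPM in shNC and shKRT15) and FOXE1 (14.6 and 15.3 CPM). TSHR and NKX2-1 had 0 or 1 read per library, EPCAM 0 to 5 and CDH1 0 to 2. Thyroglobulin (TG) had 28 to 76 reads and was not called (−0.97 ± 0.39, adjusted p = 0.0512). Epithelial markers summed to 147 to 160.4 CPM in shNC and 247.5 to 259 CPM in shKRT15. KRT18 was called higher (116 and 215 CPM, 0.89 ± 0.07, adjusted p = 1.37e-08), and KRT8 (12.9 and 14.9 CPM) and KRT7 (23.4 and 22.9 CPM) were expressed and not called. Leukocyte markers summed to 208 to 209 CPM in shNC and 158 to 186 CPM in shKRT15, nearly all from LAPTM5 and CD68. CSF1R, LYZ and CD68 were called lower, which is 3 of 4 tested members, beside 23.0% of all tested genes. LYZ was scarce, with 15, 24 and 19 reads in shNC and 1, 0 and 5 in shKRT15. The defining marker PTPRC had 5 to 21 reads per library in shNC and 0 in shKRT15. Fibroblast markers summed to 17.7 to 23.3 and 7.85 to 8.57 CPM. LUM and COL1A1 were lower and PDGFRB higher among 3 tested, beside 23.0% lower and 22.1% higher over all tested genes. Endothelial markers summed to 0.814 to 1.86 and 1.12 to 2.10 CPM, with PECAM1 as the single tested member. The part of these markers in the clock gene results was not tested. In such bulk samples, fewer cells with a transcript and less transcript per cell cannot be told apart.

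Of the 10 clock genes, PER3, DBP, PER2 and NR1D1 rose and BHLHE40 and CRY1 fell in the shKRT15 cultures. CLOCK, PER1, CRY2 and NR1D2 were not called. That is 6 of 10 called, beside 45.0% of all tested genes. By direction, 4 of 10 were higher beside 22.1%, and 2 of 10 were lower beside 23.0%. The groups did not overlap in CPM for those 6 genes and overlapped for the other 4, beside 54.0% without overlap over all tested genes. PER3 and DBP, 2 of 10, were called with a change of at least 2-fold, beside 8.95% of all tested genes. The median log2 fold change was 0.10 over the 10 genes and −0.0013 over all genes tested. With 10 genes these counts describe the list, and no test sets it apart from other genes.

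**Figure D1:**
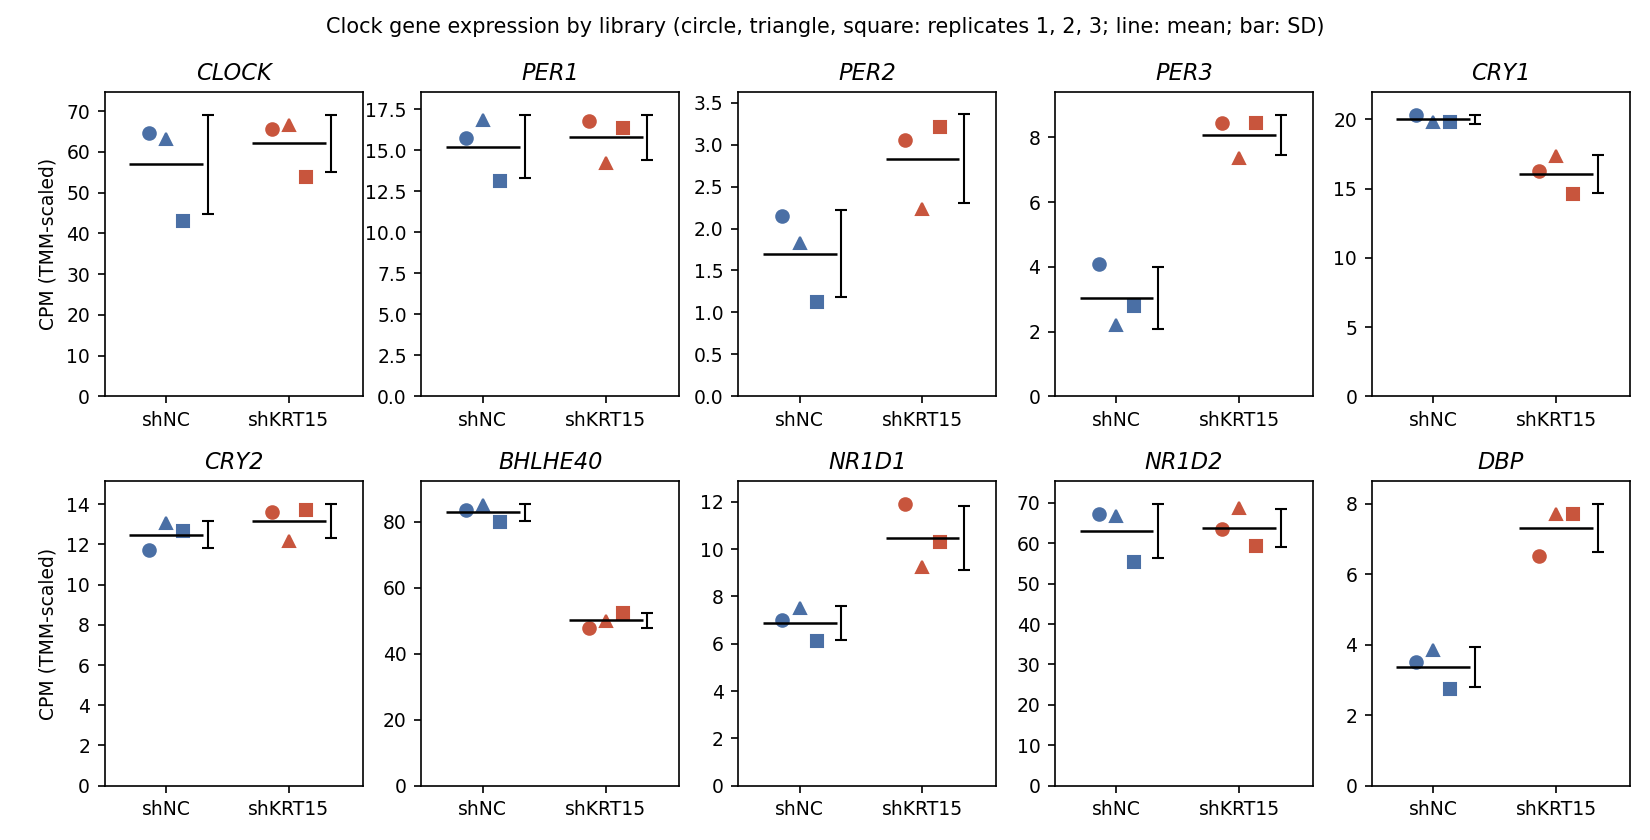
Expression of the 10 clock genes in each library. Each panel gives TMM-scaled CPM on a linear axis from 0, with blue symbols for the 3 shNC and red symbols for the 3 shKRT15 libraries, a line at the mean and a bar of 1 SD; the groups are separate for PER2, PER3, CRY1, BHLHE40, NR1D1 and DBP.

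The PER genes moved unequally. PER proteins carry the repressor complex into the nucleus, and their transcripts are both targets of the loop and its brake. PER3 lies on the plus strand of chromosome 1 (7784320 to 7845177 in GRCh38, GENCODE release 29). It stood at 4.09, 2.22 and 2.79 CPM in shNC replicates 1 to 3 and at 8.45, 7.36 and 8.43 CPM in shKRT15 replicates 1 to 3. All 3 knockdown libraries were above all 3 controls, with the lowest of them 1.80 times the highest control. The fitted rise was 2.66-fold (95% interval 1.98 to 3.58), or 1.41 ± 0.20 on the log2 scale (SE, adjusted p = 2.28e-05). The control libraries held 148, 79 and 99 reads of this gene, for a CPM of 3.03 ± 0.957 (SD, n = 3).

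PER2, on the minus strand of chromosome 2 (238244038 to 238290102), was the least abundant of the 10 genes. It stood at 2.15, 1.82 and 1.13 CPM in shNC and 3.05, 2.24 and 3.21 CPM in shKRT15, from 40 to 78 and 96 to 130 reads per library. The groups came close, the lowest knockdown library being just above the highest control. PER2 rose 1.66-fold (95% interval 1.10 to 2.51, log2 0.73 ± 0.28, adjusted p = 0.0434). This call sat near the threshold and was lost without shNC replicate 2 (adjusted p = 0.0683) or 3 (0.143) and without shKRT15 replicate 1 (0.116) or 3 (0.142). It was also lost in an alternative fit that took out how each library's counts depended on GC content and total exon length. In that fit, called the GC-adjusted fit below, PER2 was at 0.61 (adjusted p = 0.0778).

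PER1, the PER gene most known for rapid induction by cAMP, glucocorticoids and serum, was not called. It had 15.7, 16.8 and 13.1 CPM in shNC and 16.8, 14.2 and 16.4 CPM in shKRT15. These ranges overlapped almost entirely. Its log2 fold change was 0.05 ± 0.12 (adjusted p = 0.756), with a 95% interval from −0.20 to 0.31, which spans changes from −13.1% to 23.8%.

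The CRY genes encode the cryptochromes, the strongest repressors of the CLOCK and BMAL1 pair. CRY1 (chromosome 12, 106991364 to 107093829, minus strand) was tight in shNC at 20.3, 19.8 and 19.8 CPM and lower in shKRT15 at 16.3, 17.3 and 14.6 CPM. It fell by 19.6% (95% interval −31.1 to −6.16%, log2 −0.31 ± 0.11, adjusted p = 0.0220). The call was lost without shNC replicate 1 (adjusted p = 0.0660) or 2 (0.0591), without shKRT15 replicate 1 (0.0746) or 3 (0.0971), with total-count scaling (0.0701) and in the GC-adjusted fit (−0.029, adjusted p = 0.810). CRY2 stood at 11.7, 13.1 and 12.7 CPM in shNC and 13.6, 12.2 and 13.7 CPM in shKRT15. Its groups overlapped, and the log2 fold change of 0.08 ± 0.12 was not called (adjusted p = 0.623, 95% interval −0.17 to 0.32).

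BHLHE40 had the smallest p-value of the 10 genes, 3.74e-08 before adjustment in edgeR's test. It lies on the plus strand of chromosome 3 (4979116 to 4985323). Its level was 83.5, 85.2 and 80.1 CPM in shNC and 47.9, 49.96 and 52.4 CPM in shKRT15. The groups were far apart and each was narrow, with an SD of 2.59 and 2.25 CPM (n = 3 each). BHLHE40 fell by 39.6% (95% interval −46.0 to −32.3%, log2 −0.73 ± 0.08, adjusted p = 7.72e-07).

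Of the REV-ERB genes, NR1D1 rose and NR1D2 was not called. NR1D1, on the minus strand of chromosome 17 (40092787 to 40100725), had 7.01, 7.52 and 6.12 CPM in shNC and 11.9, 9.24 and 10.3 CPM in shKRT15. Each knockdown library was above each control. The rise was 1.52-fold (95% interval 1.23 to 1.88, log2 0.61 ± 0.14, adjusted p = 0.00251). NR1D2 was the more abundant of the pair at 67.2, 66.7 and 55.4 CPM in shNC and 63.5, 68.7 and 59.3 CPM in shKRT15. These values overlapped, with a log2 fold change of 0.017 ± 0.091 (adjusted p = 0.897) and a 95% interval of −0.17 to 0.21. NR1D2 was called higher in the GC-adjusted fit (0.26, adjusted p = 0.00409).

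CLOCK, the histone acetyltransferase and DNA-binding partner of BMAL1 in the activator, had 64.7, 63.1 and 42.9 CPM in shNC and 65.7, 66.6 and 53.9 CPM in shKRT15. Replicate 3 was the lowest in both groups, and the groups overlapped. The log2 fold change was 0.13 ± 0.13 (adjusted p = 0.482, 95% interval −0.16 to 0.41). It turned to −0.043 without shNC replicate 3 and was called higher in the GC-adjusted fit (0.38, adjusted p = 0.00175).

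DBP, the PAR-bZIP output factor, lies on the minus strand of chromosome 19 (48630030 to 48637438). It rose from 3.51, 3.84 and 2.74 CPM in shNC to 6.52, 7.71 and 7.71 CPM in shKRT15. The lowest knockdown library was 1.7 times the highest control. The fitted rise was 2.17-fold (95% interval 1.67 to 2.82, log2 1.12 ± 0.18, adjusted p = 6.90e-05).

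**Figure D2:**
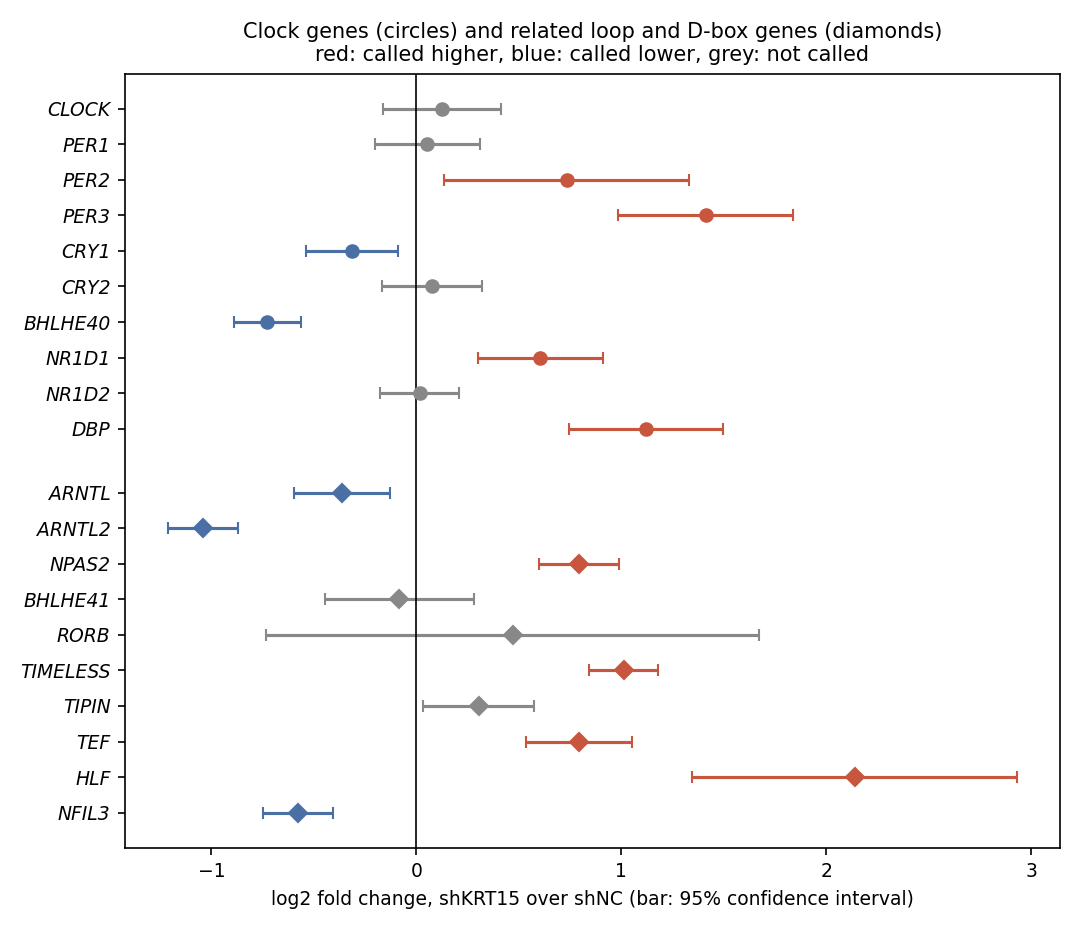
Log2 fold change of the 10 clock genes (circles) and of 10 tested loop and D-box genes (diamonds), shKRT15 over shNC, with 95% confidence intervals from the edgeR fit. Red marks genes called higher, blue genes called lower and grey genes not called; HLF (2.14) and PER3 (1.41) lie farthest to the right and ARNTL2 (−1.04) farthest to the left.

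Several calls coincided with properties of the libraries. Across 13656 tested genes with a known GC content, 95.1% of all, the Spearman correlation between log2 fold change and GC content was 0.254. CLOCK, CRY1 and NR1D2 had the lowest GC content of the 10 genes (37.2, 37.2 and 38.5%, against a median of 48.0% over tested genes). These 3 genes and PER2 (52.4%) were the ones whose calls changed in the GC-adjusted fit. In that fit 5 of the 10 genes were called higher (CLOCK, PER3, NR1D1, NR1D2 and DBP) and 1 lower (BHLHE40), beside 48.0% of all tested genes called. Among controls, shNC replicate 3 was the lowest library for 7 of the 10 genes and the highest for none. Within its group that library also ran lower for long genes, with a Spearman correlation between deviation and exon length of −0.387 across the same 13656 genes, against 0.345 and 0.161 in replicates 1 and 2. Across shKRT15 libraries this value was −0.0893 to 0.0946. The same correlation with GC content was −0.190, −0.0859 and 0.209 in shNC replicates 1 to 3 and 0.0544, −0.486 and 0.456 in shKRT15 replicates 1 to 3. Counts in shKRT15 replicates 2 and 3 thus deviated in opposite directions with the GC content of genes. Deviations are taken from the group mean, so opposite signs are partly built in. The part of GC content and exon length in the clock gene values was not tested beyond this adjustment. Without shNC replicate 3, PER3 (1.35), DBP (0.99), NR1D1 (0.53), BHLHE40 (−0.75) and CRY1 (−0.32) were still called in the same direction.

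**Figure D3:**
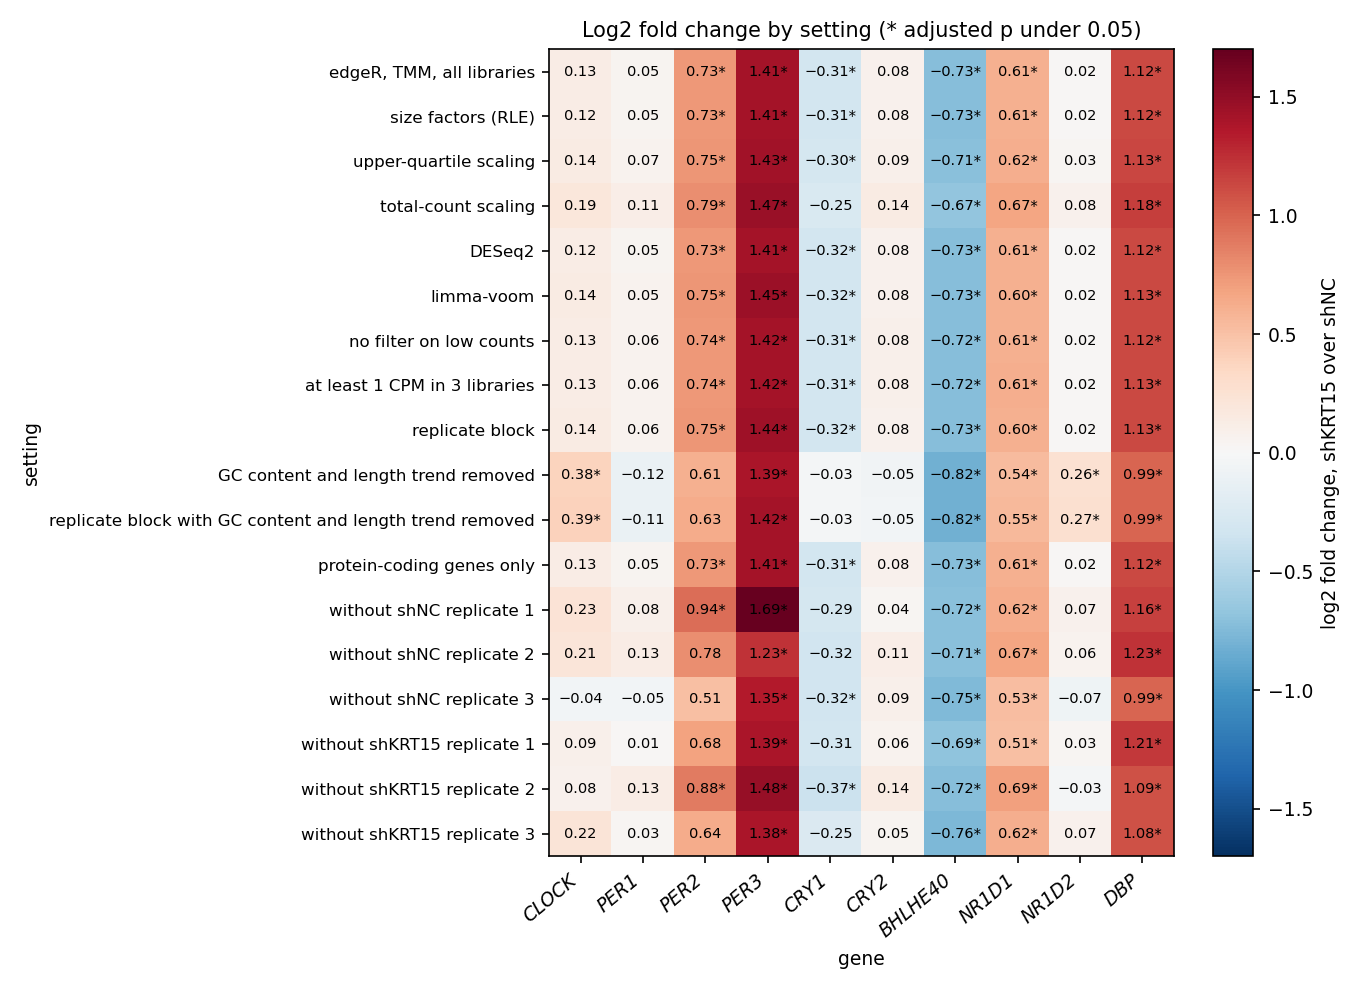
Log2 fold change (shKRT15 over shNC) of each clock gene, in columns, under the edgeR fit with TMM scaling and 17 other settings, in rows; asterisks mark an adjusted p under 0.05. PER3, BHLHE40, NR1D1 and DBP carry an asterisk in every row, while PER2 and CRY1 lose it in 6 and 7 rows and CLOCK and NR1D2 gain it in the 2 rows adjusted for GC content and length.

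Reads may also be shared with overlapping genes, since no source used here gives the strand setting of the counting. In GENCODE release 29, exons of PER3 share 868 bases with UTS2 on the opposite strand, which stood at 7.21 CPM in shNC and 5.95 CPM in shKRT15 (−0.28 ± 0.17, adjusted p = 0.206). DBP shares 661 exon bases with SPHK2 on the opposite strand (8.38 and 9.70 CPM, 0.21 ± 0.14, adjusted p = 0.242). NR1D1 shares 263 exon bases with the thyroid hormone receptor gene THRA, also on the opposite strand (14.5 and 15.8 CPM, 0.12 ± 0.11, adjusted p = 0.422). None of these 3 neighbours was called. PER3 also shares 482 exon bases with Z98884.1, PER2 188 with AC012485.1 and CRY1 94 with AC078929.1. These lie on the opposite strand and are absent from the counts, so any change in them is not known. The PER3, DBP, NR1D1, PER2 and CRY1 counts cannot be separated from reads of the shared bases. CLOCK shares 76 exon bases with TMEM165 on the opposite strand (263 CPM in shNC and 162 CPM in shKRT15). TMEM165 was called lower (−0.70 ± 0.07, adjusted p = 4.25e-07). The CLOCK counts cannot be separated from reads of the shared bases either.

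Per kilobase of the principal transcript, BHLHE40 was the most abundant of the 10 genes in both groups, at 23.9 ± 0.747 CPM per kb in shNC and 14.4 ± 0.647 in shKRT15 (SD, n = 3). NR1D2 came next at 12.0 ± 1.27 and 12.1 ± 0.890. CRY1 (6.12 ± 0.0953) and CLOCK (5.52 ± 1.18) followed in shNC, and their libraries overlapped. PER1 (3.24 ± 0.406) and CRY2 (2.97 ± 0.161) overlapped as well. NR1D1 (2.48 ± 0.255), DBP (1.51 ± 0.255), PER3 (0.489 ± 0.154) and PER2 (0.267 ± 0.0819) made up the lower end, each separate from the next. In shKRT15, NR1D1 (3.78 ± 0.486) stood above PER1 (3.36 ± 0.293) and DBP (3.28 ± 0.308) above CRY2 (3.13 ± 0.204). The libraries of NR1D1 and PER1, of PER1 and DBP and of DBP and CRY2 overlapped, so this part of the order is not resolved. PER3 (1.30 ± 0.101) and PER2 (0.444 ± 0.0822) remained the lowest.

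Whether close relatives changed unequally was examined by the log2 ratio of their reads within each library, which does not depend on library scaling. The PER1 to PER3 ratio was 1.95, 2.93 and 2.23 in shNC and 0.99, 0.95 and 0.96 in shKRT15. Its mean difference of −1.40 was the largest of the 7 pairs examined, and the knockdown libraries were nearly identical. The PER1 to PER2 ratio was 2.87, 3.21 and 3.54 in shNC and 2.46, 2.67 and 2.35 in shKRT15, a difference of −0.71. For PER2 to PER3 the difference was −0.69, with −1.31 as the lowest control and −1.39 as the highest knockdown library. NR1D1 rose relative to NR1D2, from −3.26, −3.15 and −3.18 to −2.41, −2.89 and −2.53, a difference of 0.58. CRY1 moved by −0.39 relative to CRY2, from 0.79, 0.60 and 0.65 to 0.26, 0.51 and 0.09. BHLHE40 moved by −0.66 relative to its paralogue BHLHE41, and CLOCK by −0.65 relative to NPAS2. The ratios were not adjusted for GC content, which was 37.2% in CRY1 and 57.0% in CRY2. In the GC-adjusted fit, log2 fold changes were −0.029 for CRY1 and −0.053 for CRY2, 0.54 for NR1D1 and 0.26 for NR1D2. They were 0.38 for CLOCK and 0.70 for NPAS2, −0.82 for BHLHE40 and −0.15 for BHLHE41. For PER1, PER2 and PER3 they were −0.12, 0.61 and 1.39. The groups did not overlap in any of the 7 ratios. The pairs were chosen with earlier results known, 54.0% of single tested genes did not overlap either, and the share over other gene pairs was not computed. For each pair an exact two-sided permutation test over the 6 libraries returned p = 0.1, also after adjustment over the 7 pairs. With 3 libraries in each group no smaller p can be reached, so a threshold of 0.05 was out of reach.

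**Figure D4:**
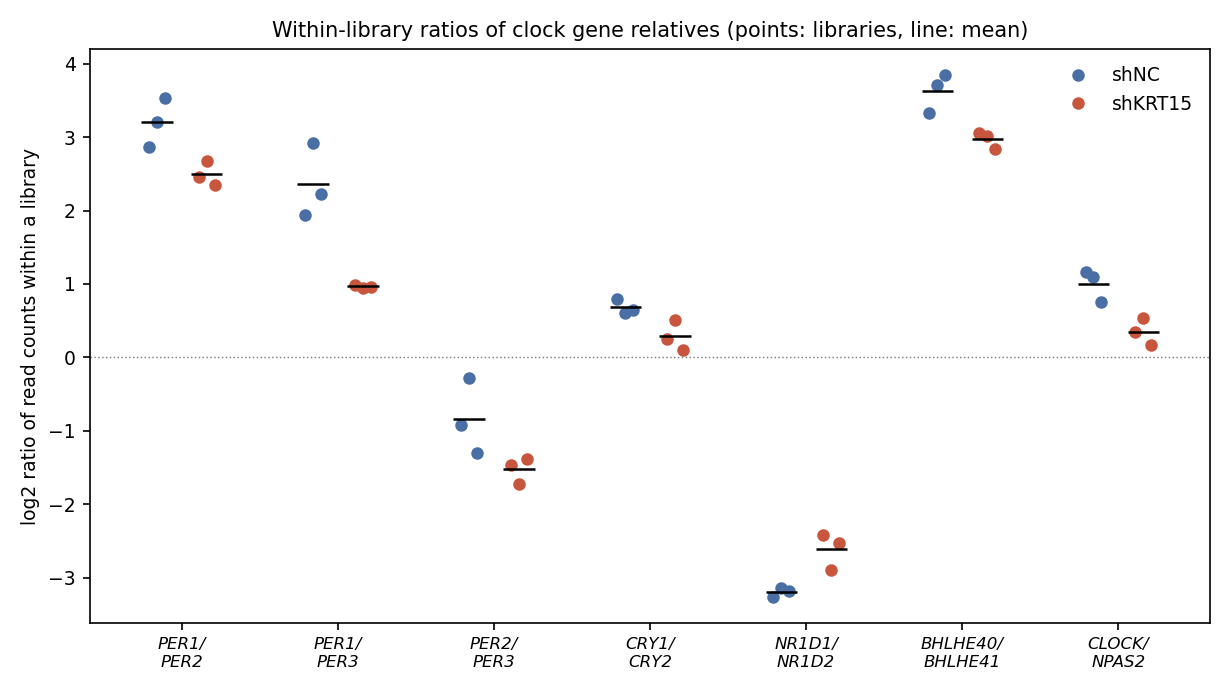
Log2 ratio of read counts within each library for 7 pairs of related clock genes, with blue points for shNC, red points for shKRT15 and lines at the means. The PER1/PER3 points of shKRT15 lie between 0.95 and 0.99 against 1.95 to 2.93 in shNC, and the groups are separate in every pair.

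Both partners of CLOCK in the activator, ARNTL and ARNTL2, fell, and its relative NPAS2 rose. Of 7 tested genes on a list of other loop genes, 2 rose (NPAS2 and TIMELESS), 2 fell (ARNTL and ARNTL2) and 3 were not called, beside 22.1% higher and 23.0% lower over all tested genes. Their median log2 fold change was 0.30, the value of TIPIN, against −0.0013 over all genes. TIPIN and TIMELESS (1.01), a replication fork pair described below, are on this list. The rest were at −1.04 (ARNTL2), −0.36 (ARNTL), −0.08 (BHLHE41), 0.47 (RORB) and 0.79 (NPAS2). ARNTL, which encodes BMAL1, fell from 20.4 ± 2.27 to 15.9 ± 0.847 CPM (SD, n = 3 each; −0.36 ± 0.11, adjusted p = 0.0137), a call lost without shNC replicate 3 (adjusted p = 0.0550) or shKRT15 replicate 3 (0.0575). Its paralogue ARNTL2, which also pairs with CLOCK, fell from 338 ± 31.3 to 164 ± 12.3 CPM (−1.04 ± 0.08, adjusted p = 1.72e-08). NPAS2, which can stand in for CLOCK, rose from 28.0 ± 2.26 to 48.5 ± 2.80 CPM (0.79 ± 0.09, adjusted p = 2.31e-06).

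TIMELESS, named for a fly clock gene and known in mammals chiefly as a replication fork protein, went from 34.9 ± 1.66 to 70.4 ± 1.12 CPM (1.01 ± 0.08, adjusted p = 2.25e-08). TIPIN, its fork partner, was not called (0.30 ± 0.13, adjusted p = 0.0644), though its groups did not overlap, and it was called with total-count scaling (adjusted p = 0.0304) and in the GC-adjusted fit (0.00131). BHLHE41, the DEC2 repressor, was at −0.08 ± 0.17 (adjusted p = 0.728). The activating receptors were scarce: RORB (0.47 ± 0.57, adjusted p = 0.535) had 7 to 21 reads per library, and RORA (1 to 14 reads) was not tested. CIART, a further repressor, had 0 to 8 reads and was not tested.

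All 3 other D-box factors were called, beside 45.0% of all tested genes. TEF and HLF, the PAR-bZIP relatives of DBP, rose, TEF from 11.4 ± 1.74 to 19.7 ± 0.888 CPM (0.79 ± 0.12, adjusted p = 4.72e-05). HLF was scarce, with 14, 34 and 14 reads in shNC and 105, 93 and 119 in shKRT15 (2.14 ± 0.38, adjusted p = 1.80e-04). NFIL3 (E4BP4), the repressor that competes with them for D-boxes, fell from 69.3 ± 3.40 to 46.4 ± 1.78 CPM (−0.58 ± 0.08, adjusted p = 1.63e-05). With DBP, the 3 PAR-bZIP activators were thus all higher and the D-box repressor lower in shKRT15. Promoter windows of both TEF start sites held an E-box, the HLF windows held a cAMP response element in 1 of 2, and those of NFIL3 held no match.

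Of 20 tested kinases, phosphatases, ubiquitin ligases and cofactors that act on clock proteins, 6 rose, 2 fell and 12 were not called, at a median of 0.04. These 8 of 20 stand beside 45.0% called over all tested genes. NONO, a PER-binding RNA-binding protein, rose from 271 ± 3.88 to 410 ± 8.05 CPM (0.60 ± 0.06, adjusted p = 9.98e-07), and DDB1, a ligase adaptor that acts on CRY1, rose by 0.29 ± 0.08 (adjusted p = 0.00501). FBXW7, an F-box protein that targets REV-ERB alpha, fell by 0.69 ± 0.11 in log2 (adjusted p = 4.18e-05), and the kinase gene GSK3B by 0.31 ± 0.09 (adjusted p = 0.00689). The call of DDB1 was lost in the GC-adjusted fit (adjusted p = 0.0553) and that of GSK3B without shNC replicate 2 (0.0627). Of the casein kinase genes on the list, CSNK1D rose from 145 to 171 CPM (0.23 ± 0.07, adjusted p = 0.0137). CSNK2A1 rose by 0.20 ± 0.07 (adjusted p = 0.0342). CSNK1E, scarce at 2.22 CPM in shNC and 1.80 CPM in shKRT15, was not called (−0.30 ± 0.27, adjusted p = 0.399). Nor were CSNK1A1 (351 and 365 CPM, 0.06 ± 0.07, adjusted p = 0.520) and CSNK2B (0.05 ± 0.07, adjusted p = 0.591).

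Of the 6 genes of the corepressor complex through which REV-ERB proteins act, 4 rose and 2 (TBL1XR1 and GPS2) were not called, at a median of 0.48, beside 22.1% of all tested genes higher. Among those that rose were NCOR1 (0.54 ± 0.09), HDAC3 (0.42 ± 0.08) and TBL1X (0.53 ± 0.11), with adjusted p of 8.64e-05, 3.04e-04 and 8.90e-04. Genes long described as clock outputs went both ways: of 11 tested, 3 rose, 4 fell and 4 were not called, at a median of −0.02, beside 22.1% higher and 23.0% lower over all tested genes. Among those that fell, NAMPT, which makes an NAD precursor under clock control, decreased by 0.75 ± 0.07 on the log2 scale (adjusted p = 1.69e-07), ALAS1 of haem synthesis by 0.52 ± 0.07 (1.50e-05) and KLF9 by 0.84 ± 0.13 (5.99e-05). The outputs that rose were the mitotic inhibitor kinase gene WEE1 (0.55 ± 0.11), KLF10 (0.45 ± 0.09) and POR (0.22 ± 0.08).

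Inputs to PER transcription and glucocorticoid-induced genes were also mixed. Of 8 CREB factors and coactivators, 2 rose (CREBBP, 0.55 ± 0.12, and CREB1, 0.33 ± 0.11), 2 fell (CRTC2, −0.25 ± 0.08, and CREM, −0.25 ± 0.09) and 4 were not called, beside 45.0% of all tested genes called. CREB1 was not called without shNC replicate 3 (adjusted p = 0.0521) or shKRT15 replicate 1 (0.0665) or 2 (0.0584), and CRTC2 without shNC replicate 2 (0.0783) or with total-count scaling (0.0552). CREM lost its call under 8 of 17 other settings. The glucocorticoid list holds the receptor gene and genes induced by glucocorticoids, among them PER1 and KLF9. Of its 7 tested genes, FKBP5 rose (0.92 ± 0.11, adjusted p = 3.63e-06) and SGK1 (−1.86 ± 0.17), DUSP1 (−0.85 ± 0.07) and KLF9 fell. That is 4 of 7 called, beside 45.0% of all tested genes. The receptor gene NR3C1 was not called (0.09 ± 0.09, adjusted p = 0.465), nor was TSC22D3, a standard glucocorticoid target (0.04 ± 0.13, adjusted p = 0.836).

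The profiles nearest to those of the leading clock genes were sought among the 12421 genes whose mean reached 1 CPM, as the Euclidean distance between centred log2 (CPM + 0.5) values over the 6 libraries. For PER3 they were CENPP (distance 0.188), ZSCAN31 (0.216) and PXMP4 (0.311), with log2 fold changes of 1.40, 1.47 and 1.21. For BHLHE40 they were GPR176 (0.040), MARCKS (0.095) and SLC11A2 (0.096), with log2 fold changes of −0.74, −0.75 and −0.73. The 6 libraries share 1 contrast, so a short distance largely restates a similar difference between the groups.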

How the data were processed

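The authors deposited unnormalized read counts, whole numbers for each gene in each of the 6 libraries. Per the submitters' processing notes the build was GRCh38. The aligner, counter, annotation and strand setting were not given in the sources used. Per the labels' protocols, mRNA was purified and sequenced from TRIzol RNA. Libraries were placed in groups by title. They are described as biological replicates, with no statement that each was transfected separately, so a p-value reflects how far these cultures differ.

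Counts were tested with edgeR 4.0.16 (R 4.3.3; TMM, filterByExpr with minimum count 10 and total 15, robust quasi-likelihood test, group as the only term), which kept 14356 genes. Intervals are 95% from that fit. Paralogue ratios were compared with exact permutation tests, and lists were described by counts only. DESeq2 1.42.0, limma-voom (limma 3.58.1), other scalings and filters, protein-coding genes only, the replicate number as a block, removal of a GC content and length trend (splines with 5 degrees of freedom each, GENCODE release 29), and leaving out each library were the alternatives. The fit was tested on simulated data. The clock genes and lists were chosen with earlier results of these data known. Named genes were the 10 members, all tested loop and D-box genes, up to 4 genes per other list by p-value, genes that make up a count of 5 or fewer, KRT15, and the nearest profiles. The casein kinase genes and the overlapping genes were named after their values were seen. Some list genes that the counts include are not reported here by name.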

Additional observations from a re-analysis of the deposited data

How the results depend on the processing

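PER3, DBP, NR1D1 and BHLHE40 kept their direction and their call under all 17 other settings, with log2 fold changes of 1.23 to 1.69, 0.99 to 1.23, 0.51 to 0.69 and −0.82 to −0.67. The number of clock genes called lower, 2, became 1 with total-count scaling, 1 in the GC-adjusted fit and 1 in that fit with a replicate block, and it was 1 to 2 when single libraries were left out, each time through CRY1. The number called higher was 3 to 5. Among the named genes compared across settings, direction reversed for 5, all uncalled. Over the fits without 1 library, CLOCK ranged from −0.043 to 0.23, PER1 from −0.046 to 0.13 and NR1D2 from −0.070 to 0.071, each lowest without shNC replicate 3, and BHLHE41 from −0.21 to 0.093. NR1D2 was also below 0 without shKRT15 replicate 2 (−0.033). In the GC-adjusted fit PER1 was at −0.12 and CRY2 at −0.053 (−0.11 and −0.052 with the replicate block added). Same-numbered libraries of the groups did not deviate together (correlations of 0.0188, −0.00742 and 0.0462 across genes), so the numbers were not taken as pairs. The replicate block called 4 clock genes higher and 2 lower, and 3305 and 3428 of all genes in place of 3169 and 3295. The cause of these shifts was not tested. Of the 10 clock genes PER2 had the fewest reads, 40 to 130 per library, and the largest SE.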
